A study of Mus musculus with 18 samples.

Results

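The genes described here encode the nuclear-encoded subunits of the mitochondrial respiratory chain and of the ATP synthase, measured in C2C12 cells, a mouse myoblast line that can be made to fuse into myotubes. They were chosen by name. Each protein-coding gene of the GENCODE M21 annotation was taken whose symbol starts with Ndufa, Ndufb, Ndufc, Ndufs, Ndufv, Uqcr, Cox4i, Cox5, Cox6, Cox7, Cox8 or Atp5, together with Sdha, Sdhb, Sdhc, Sdhd and Cyc1. Assembly factors named Ndufaf and the muscle isoforms Cox6a2, Cox7a1 and Cox8b were left out. This gave 83 of the 50600 genes in the count files, with 38 genes in complex I, 4 in complex II, 9 in complex III, 15 in complex IV and 17 in complex V. Ndufa4 and Ndufa4l2 were counted with complex I by their symbols, although the Ndufa4 protein is now placed in complex IV. Of the 83 genes, 79 passed the filter on low counts and were tested within a table of 13939 genes. The other 4 (Cox4i2, Cox6b2, Cox8c and Ndufa4l2) stayed at or under 0.632 CPM in every library, where CPM is the read count scaled to normalised library size.

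Poly(A) RNA was sequenced from 3 stable C2C12 lines. The control line had received a control plasmid. The ERK3-depleted line had received px459, a plasmid that carries Cas9, with a guide to Mapk6, the gene of the atypical MAP kinase ERK3. The MK5-depleted line had received px459 with a guide to Mk5, the gene of the kinase MK5 (Mapkapk5), a partner of ERK3. Each line was sampled in growth medium (GM), which keeps myoblasts dividing, and at day 2 of culture in differentiation medium (DM2). Each of the 6 groups had 3 libraries. The labels do not give whether a line was 1 clone, nor whether replicates were separate cultures, so the p-values below measure only the spread between these libraries, which may be technical.

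The libraries held 17.5 M to 23.4 M reads counted in genes. Reads that fell outside annotated genes made up 2.90% to 3.70% of uniquely mapped reads in the control line. At DM2 they made up 7.20%, 10.3% and 4.71% in ERK3-depleted replicates 1 to 3 and 5.02%, 5.21% and 3.47% in the MK5-depleted replicates. The highest shares were thus in ERK3-depleted replicates 1 and 2 and MK5-depleted replicates 1 and 2 at DM2. ERK3-depleted replicate 3, at 4.71%, also lay above every control library, and it stays in the fits below that leave out those 4 libraries. Not every DM2 call that is lost in such fits is named. Mapk6 stood at 150, 119 and 124 CPM in the control line and at 115, 105 and 133 CPM in the ERK3-depleted line in GM, values that overlap. At DM2 it stood at 219, 207 and 204 CPM in control and at 116, 96.8 and 136 CPM in ERK3-depleted libraries (log2 fold change -0.86 ± 0.12 (SE), edgeR quasi-likelihood test, adjusted p = 2.18e-05). Mapkapk5 was close to 1 CPM throughout and was lower in the MK5-depleted line at DM2 (-0.68 ± 0.26, edgeR adjusted p = 0.0443). Mapk6 was also called lower in the MK5-depleted line at DM2. Its log2 change from GM to DM2 was below that of control by 0.70 ± 0.17 in the ERK3-depleted line (edgeR adjusted p = 0.00788). In the MK5-depleted line it was below by 0.72 ± 0.17 (edgeR adjusted p = 0.0123). The lower Mapk6 level at DM2 was thus not particular to the ERK3-depleted line. The level of an mRNA does not measure whether its protein was lost.

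The labelled cell type was checked on marker genes. All 7 myoblast markers averaged at least 1 CPM in every group, and the summed level of 9 markers of differentiated muscle went from 105 to 191 CPM in control GM to 2801 to 3165 CPM in control DM2. At DM2 that sum was 2008 to 2661 CPM in the ERK3-depleted and 1863 to 3064 CPM in the MK5-depleted line. Summed over each whole list, macrophage markers did not exceed 2.98 CPM and endothelial markers did not exceed 1.60 CPM in any library, and the defining genes Adgre1 and Cdh5 stayed under 0.1 CPM in all groups. Adipocyte markers summed to 4.42 to 10.2 CPM. Fibroblast markers at DM2 summed to 80.6 to 134 CPM in control, 77.0 to 106 CPM in ERK3-depleted and 56.7 to 93.1 CPM in MK5-depleted libraries. Of the 4 tested fibroblast markers 2 were lower at DM2 in each depleted line, and their part in the results was not tested.

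Electrons enter the respiratory chain from NADH at complex I and from succinate at complex II, pass through ubiquinone to complex III and through cytochrome c to complex IV, where oxygen is reduced. The proton gradient that this builds drives ATP synthesis by complex V. A few large core subunits of each complex carry the flavin, iron-sulfur, haem or nucleotide sites, and many small accessory subunits surround them. Most subunits are encoded in the nucleus, and transcription of many of these genes is known to depend on the factors NRF1, GABP (of the ETS family) and YY1 and on coactivators of the PGC-1 family. Skeletal muscle is known for a high oxidative capacity, which rises as myoblasts mature.

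RefSeq promoter windows (build GRCm38.p6, 250 bases before to 50 after the start) were found for 65 of the 83 genes. Letters of the NRF1 core, GCGCANGCG on either strand, were present in 20 of them (30.8%), against 7.03% of all 27025 genes with a window and 15.1% of the 10133 tested genes with a window. The ETS core, CCGGAAG on either strand, was present in 16 (24.6%), against 9.93% of all genes and 20.1% of tested genes. YY1 letters, AANATGGCG, were present in 10 (15.4%), against 2.76% and 5.97%, and the Sp1 box GGGCGG in 27 (41.5%), against 38.2% and 68.4%. None of the NRF1 and ETS matches printed here overlap each other. A match is a run of letters and not a shown binding site. The 5 stretches lie outside all M21 exons, upstream of the start, and are printed 5′ to 3′ on the strand of the gene, with NRF1 and ETS letters in capitals. Atp5e, Uqcr11, Atp5l and Ndufb4 are shown because they hold such letters and were among the genes that were higher at DM2 in the ERK3-depleted line. Atp5b is shown because it was lower there and holds none. This choice does not show whether the letters go with the rise. Ndufc1, Uqcr10, Cox8a and Atp5g1 were also higher there, and their stretches, cut in the same way, hold neither NRF1 nor ETS letters.
Atp5e, chr2:174464106-174464351, minus strand: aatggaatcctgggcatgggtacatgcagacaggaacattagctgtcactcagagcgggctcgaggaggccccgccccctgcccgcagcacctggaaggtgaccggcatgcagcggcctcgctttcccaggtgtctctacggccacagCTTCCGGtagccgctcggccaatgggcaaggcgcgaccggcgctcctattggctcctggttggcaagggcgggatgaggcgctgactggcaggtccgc
Uqcr11, chr10:80406831-80407071, minus strand: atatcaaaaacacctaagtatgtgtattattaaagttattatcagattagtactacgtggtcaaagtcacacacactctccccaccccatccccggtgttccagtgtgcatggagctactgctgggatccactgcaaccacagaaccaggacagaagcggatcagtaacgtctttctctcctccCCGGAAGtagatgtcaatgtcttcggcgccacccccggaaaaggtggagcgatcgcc
Atp5l, chr9:44920752-44920992, minus strand: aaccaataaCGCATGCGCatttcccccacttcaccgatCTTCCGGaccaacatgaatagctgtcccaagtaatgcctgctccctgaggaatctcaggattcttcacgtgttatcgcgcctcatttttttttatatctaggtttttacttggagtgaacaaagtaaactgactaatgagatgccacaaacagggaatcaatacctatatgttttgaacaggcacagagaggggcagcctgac
Ndufb4, chr16:37654454-37654618, minus strand: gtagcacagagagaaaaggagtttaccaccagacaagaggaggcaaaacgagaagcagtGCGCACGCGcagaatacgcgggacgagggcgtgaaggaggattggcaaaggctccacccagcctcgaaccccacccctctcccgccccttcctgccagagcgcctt
Atp5b, chr10:128083057-128083272, plus strand: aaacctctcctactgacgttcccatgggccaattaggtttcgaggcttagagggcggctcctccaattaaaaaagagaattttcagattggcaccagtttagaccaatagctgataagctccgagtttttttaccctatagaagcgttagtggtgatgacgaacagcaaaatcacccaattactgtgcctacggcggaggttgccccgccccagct

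Levels per length were compared as the deposited TPM, transcript abundance scaled to length and depth. In the control line in GM, Atp5b, the catalytic beta subunit of the ATP synthase, was the most abundant of the 83 genes, at 1493 ± 153 TPM (SD, n = 3). Ndufa4 followed at 906 ± 19.6 TPM, and these neighbours differed by more than their spread. Cox6c (794 ± 19.2 TPM) and Atp5g3 (730 ± 67.5 TPM), which encodes the c subunit of the rotor ring, came next, and their ranges met within 1 SD. Uqcrh (681 ± 24.2 TPM) and Cox4i1 (667 ± 18.1 TPM) did not differ beyond their spread either. At the other end, Ndufs1, the largest core subunit of complex I, stood at 77.8 ± 3.55 TPM, Atp5s at 5.94 ± 0.348 TPM and Cox7b2 at 1.08 ± 0.221 TPM. The 83 genes together held 2.43% ± 0.0867 of all TPM in control GM and 2.35% ± 0.00860 in control DM2.

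Differentiation of the control line was accompanied by small decreases. Of the 79 tested genes 22 were lower at DM2 and 1 was higher, and 56 did not pass the test, where 45.6% of all tested genes were called (22.5% higher and 23.1% lower). The median log2 fold change was -0.18 over the 79 genes and -0.02 over all tested genes. By transcript length, the subunit genes had medians of -0.19 under 600, -0.20 from 600 to 1200 and -0.11 at 1200 bases and over. All tested genes of the same lengths had -0.30, -0.27 and 0.03. In the shorter classes the median of all genes thus fell more than that of the subunit genes. By complex, 10 of 37 genes fell in complex I, 1 of 4 in complex II, 2 of 9 in complex III, 5 of 12 in complex IV and 4 of 17 in complex V.

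Ndufa4 had 307, 312 and 294 CPM in control GM and 202, 204 and 208 CPM in control DM2. The groups did not overlap, and the gene fell by 0.57 ± 0.08 on the log2 scale (edgeR adjusted p = 7.35e-06). Cox6a1, an accessory subunit of complex IV, went from 241, 238 and 217 CPM to 168, 167 and 168 CPM (-0.47 ± 0.10, edgeR adjusted p = 0.000864). Uqcrc1, a core protein of complex III, went from 239, 234 and 225 CPM to 170, 174 and 176 CPM (-0.42 ± 0.09, edgeR adjusted p = 0.000556). Sdhb, the iron-sulfur subunit of succinate dehydrogenase, went from 145, 145 and 141 CPM to 114.9, 109.9 and 116.8 CPM (-0.34 ± 0.08, edgeR adjusted p = 0.00193). None of these 4 pairs of groups overlapped. The total of 23 called fell to 14 without control DM2 replicate 1 or 2 and to 15 without control GM replicate 1 or 2. With length and GC content corrected the counts became 7 higher and 5 lower, and on TPM they became 4 higher and 5 lower. For most alternative fits, here and below, the share of all tested genes called is not given. Such counts are not read as particular to the subunit genes. In such bulk samples fewer cells of a type and less RNA per cell cannot be told apart.

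In growth medium the tested genes were slightly higher in the ERK3-depleted than in the control line. The edgeR test called 21 of 79 higher and 0 lower, where 6.79% of all tested genes were called (3.72% higher and 3.06% lower). The median log2 fold change was 0.27 over the 79 genes and -0.01 over all tested genes, and 74 of the 79 values lay above 0. Complex III had the highest median (0.33), with 4 of 9 genes called, and complexes I, II, IV and V had medians of 0.26, 0.25, 0.26 and 0.29, with 7 of 37, 2 of 4, 3 of 12 and 5 of 17 genes called. With the replicate number as a block 38 genes were called higher and 0 lower. Corrected for length and GC content the count was 2 higher and 0 lower, on TPM 0 and 0 genes were called, and without control replicate 2, control replicate 3 or ERK3-depleted replicate 1 in GM it was 0.

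The MK5-depleted line in GM had 4 genes called higher and 0 lower, where 8.45% of all tested genes were called (4.71% higher and 3.74% lower), and its median was 0.13. Under the replicate block 8 were called, and without control replicate 2 or 3 or MK5-depleted replicate 1 or 3 in GM none were. On TPM 0 were called as well, and with length and GC content corrected 13 were higher and 0 lower (20 and 0 with the block as well). The 4 genes were Cyc1, Sdhd, Atp5g3 and Atp5c1. Both depleted lines were compared with the same control libraries. Fibroblast markers also differed between these groups, with a summed level of 38.1 to 54.9 CPM in control, 27.8 to 33.2 CPM in ERK3-depleted and 27.0 to 27.4 CPM in MK5-depleted GM libraries, and 4 of 4 tested markers lower in each depleted line, while Lum stayed under 0.1 CPM in the depleted lines in GM. Their part in the result was not tested.

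Cyc1 encodes cytochrome c1 of complex III. It had 185, 146 and 162 CPM in control GM, 236, 220 and 233 CPM in ERK3-depleted GM and 231, 214 and 218 CPM in MK5-depleted GM. Both depleted groups lay wholly above the control group. Cyc1 was thus higher by 0.48 ± 0.09 and 0.43 ± 0.09 on the log2 scale (edgeR adjusted p = 0.0109 in either line). Sdhd, a membrane anchor of complex II, had 148, 149 and 148 CPM in control, 211, 177 and 177 CPM in ERK3-depleted and 193, 181 and 191 CPM in MK5-depleted libraries. Its log2 fold change was 0.34 ± 0.09 in either line, with edgeR adjusted p = 0.0269 and 0.0226. Atp5g3 had 412, 362 and 365 CPM in control and 544, 470 and 467 CPM in ERK3-depleted GM (0.38 ± 0.08, edgeR adjusted p = 0.0157), again without overlap. Its paralog Atp5g1, which encodes the same mature c subunit, rose by 0.54 ± 0.15 in the ERK3-depleted line (edgeR adjusted p = 0.0368), and Atp5g2 did not pass the test (-0.02 ± 0.29). Uqcrq, a small subunit of complex III, and Ndufa5, an accessory subunit of the matrix arm of complex I, had log2 fold changes of 0.55 ± 0.15 and 0.45 ± 0.11 in that line (edgeR adjusted p = 0.0387 and 0.0223).

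**Figure D1:**
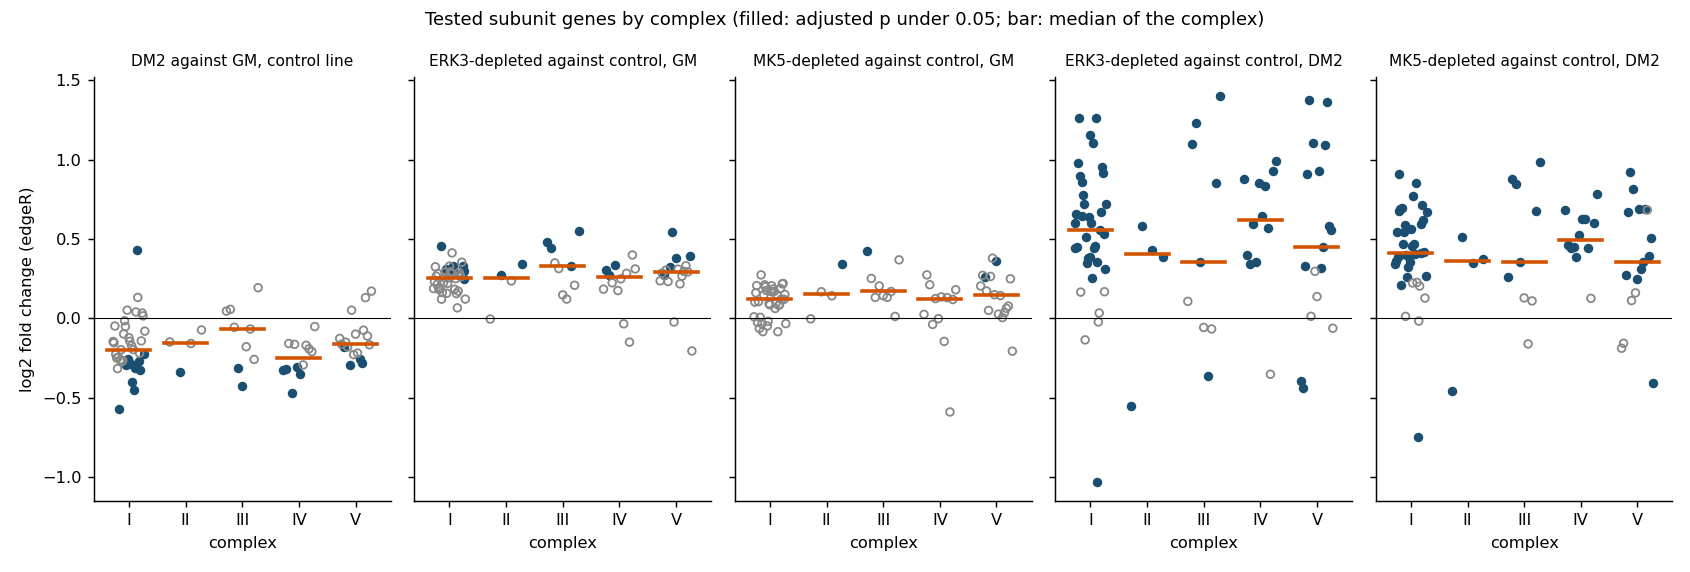
Log2 fold change (edgeR) of the 79 tested subunit genes, 1 point per gene, grouped by complex, in 5 comparisons; filled points passed adjusted p under 0.05 and bars mark the median of each complex. In GM nearly all points of the ERK3-depleted line lie between 0 and 0.549, while at DM2 the points spread from -1.03 to 1.40 in the ERK3-depleted and from -0.75 to 0.98 in the MK5-depleted line.

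At DM2 most subunit genes were higher in both depleted lines than in control, and a few were lower. In the ERK3-depleted line 61 of 79 were higher, 5 lower and 13 not called, where 55.8% of all tested genes were called (28% higher and 27.8% lower). In the MK5-depleted line 61 were higher, 3 lower and 15 not called, where 45.1% of all tested genes were called (22.2% higher and 22.9% lower). The median log2 fold changes were 0.56 and 0.42, against 0.01 and 0.003 over all tested genes. By complex the medians in the ERK3-depleted line were 0.56, 0.41, 0.35, 0.62 and 0.45 for complexes I to V, and in the MK5-depleted line 0.41, 0.36, 0.35, 0.49 and 0.36.

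Markers of dividing cells also differed at DM2, with all 4 at 1 CPM or more in each group and a summed level of 312 to 345 CPM in control, 433 to 632 CPM in ERK3-depleted and 589 to 763 CPM in MK5-depleted libraries, and their part in the result was not tested. The counts of subunit genes depended on how transcript length entered. Corrected for both length and GC content they were 27 higher and 19 lower (median 0.02) in the ERK3-depleted and 18 higher and 6 lower (median 0.03) in the MK5-depleted line. On TPM they were 31 higher and 22 lower, and 29 higher and 7 lower, with the median of all genes itself shifted to -0.46 and -0.29, so that relative to that shift the members' medians of 0.01 and 0.12 lay higher. Without the 4 libraries with the most reads outside genes, which leaves 1 library in each depleted DM2 group and assumes that it varies like the other groups, the counts were 42 higher and 2 lower, and 55 higher and 3 lower. Of the genes lower in the ERK3-depleted line, Ndufs1 (-0.66) and Sdha (-0.51) were still called without those libraries, and Uqcrc2 (-0.13, edgeR adjusted p = 0.306), Atp5b (-0.23, adjusted p = 0.105) and Atp5a1 (-0.20, adjusted p = 0.119) were not. Uqcrq stood at 0.81, Atp5e at 0.68 and Ndufc1 at 0.76 in that fit, all called. In the ERK3-depleted line Sdhc (0.24), Sdhd (0.19), Cox6b1 (0.16), Ndufs8 (0.30), Atp5c1 (0.20) and Atp5l (0.52) were not called there, nor was Atp5g3 (0.23) in the MK5-depleted line. Of all genes tested in that fit 12.8% were higher and 12.6% lower in the ERK3-depleted line, and 14.6% and 15.4% in the MK5-depleted line.

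In complex I, 31 of 37 tested genes were higher and 1 lower in the ERK3-depleted line, and 30 were higher and 1 lower in the MK5-depleted line. Ndufc1, a small membrane-arm subunit (chr3:51404677-51408988, minus strand, GRCm38), had 37.6, 39.7 and 41.9 CPM in control DM2, 103, 116 and 67.6 CPM in ERK3-depleted DM2 and 80.7, 77.9 and 56.5 CPM in MK5-depleted DM2. All depleted libraries lay above all control libraries, with replicate 3 the lowest in each depleted line. It rose by 1.26 ± 0.15 and 0.85 ± 0.15 (edgeR adjusted p = 7.46e-06 and 0.000333). Ndufa2, an accessory subunit of the matrix arm, was 1.26 ± 0.14 and 0.91 ± 0.14 higher (edgeR adjusted p = 5.45e-06 and 0.000138).

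Ndufs1 encodes the large iron-sulfur subunit of the NADH-oxidising module (chr1:63143596-63176833, minus strand) and went the other way. It had 147, 152 and 154 CPM in control DM2, 70.0, 56.5 and 95.6 CPM in ERK3-depleted DM2 and 79.1, 82.3 and 109 CPM in MK5-depleted DM2. No depleted library reached the control range, and replicate 3 was again the one nearest to control. It fell by 1.03 ± 0.14 and by 0.75 ± 0.14 on the log2 scale (edgeR adjusted p = 1.89e-05 and 0.000503). In GM Ndufs1 did not pass the test in either line (0.16 ± 0.14 and 0.15 ± 0.14). The core subunits Ndufv1 (0.17 ± 0.07 and 0.13 ± 0.07) and Ndufs3 (0.03 ± 0.09 and 0.20 ± 0.09) were not called at DM2, while Ndufs7 and Ndufs8, which carry iron-sulfur clusters toward the quinone site, were higher (0.91 ± 0.12 and 0.53 ± 0.09 in the ERK3-depleted line).

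Complex II has only 4 subunits, all nuclear-encoded, and they split. Sdha, the flavoprotein (chr13:74322254-74350280, minus strand), had 278, 279 and 262 CPM in control DM2, 190, 178 and 192 CPM in ERK3-depleted DM2 and 188, 199 and 210 CPM in MK5-depleted DM2. The groups did not overlap, and in GM all 9 libraries lay between 295 and 311 CPM. It fell by 0.55 ± 0.06 and by 0.46 ± 0.06 (edgeR adjusted p = 5.91e-06 and 5.29e-05). Sdhb had 114.9, 109.9 and 116.8 CPM in control DM2, 188, 173 and 150 CPM in ERK3-depleted and 163, 163 and 161 CPM in MK5-depleted DM2 (0.58 ± 0.08 and 0.51 ± 0.08, edgeR adjusted p = 1.49e-05 and 0.000106). The anchors Sdhc (0.43 ± 0.08 and 0.35 ± 0.08) and Sdhd (0.39 ± 0.09 and 0.37 ± 0.09) were called higher on read counts, but Sdhc turned to -0.68 and -0.30 on TPM and to -0.01 and -0.03 with length and GC content corrected, and Sdhd turned to -0.19 on TPM in the ERK3-depleted line.

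In complex III, 5 of 9 genes were higher and 1 lower in the ERK3-depleted line, and 6 were higher and 0 lower in the MK5-depleted line. Uqcrq (chr11:53427922-53430831, minus strand) had 103, 102 and 105 CPM in control DM2, 311, 323 and 182 CPM in ERK3-depleted DM2 and 226, 203 and 183 CPM in MK5-depleted DM2. Each depleted library was above each control library. It rose by 1.40 ± 0.15 and 0.98 ± 0.15 (edgeR adjusted p = 4.87e-06 and 0.000123). Uqcr11 and Uqcr10, both small subunits, rose by 1.23 ± 0.15 and 1.10 ± 0.12 in the ERK3-depleted line and by 0.85 ± 0.14 and 0.88 ± 0.12 in the MK5-depleted line. The large core protein Uqcrc2 (chr7:120635176-120659524) had 118, 121 and 122 CPM in control DM2, and 87.6, 82.3 and 111 CPM in ERK3-depleted DM2. It fell by 0.37 ± 0.09 there (edgeR adjusted p = 0.00325) and did not pass the test in the MK5-depleted line (-0.16 ± 0.09, edgeR adjusted p = 0.173). The electron-carrying subunits Cyc1 (0.11 ± 0.09) and Uqcrfs1, the Rieske iron-sulfur protein (-0.07 ± 0.09), were not called in the ERK3-depleted line. In the MK5-depleted line Cyc1 was called higher and Uqcrfs1 was not called (0.11 ± 0.09).

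In complex IV, 11 of 12 tested genes were higher and 0 lower in each depleted line. Cox4i1, the ubiquitous form of subunit 4 (chr8:120668222-120674207, plus strand), had 275, 275 and 291 CPM in control DM2, 572, 557 and 414 CPM in ERK3-depleted DM2 and 451, 450 and 449 CPM in MK5-depleted DM2. The groups did not overlap (0.87 ± 0.11 and 0.68 ± 0.11, edgeR adjusted p = 8.41e-06 and 0.000138). Its hypoxia-linked paralog Cox4i2 was not tested. Cox8a, a small membrane subunit, rose by 0.99 ± 0.12 and 0.79 ± 0.12 (edgeR adjusted p = 7.64e-06 and 0.000112), and Cox8c had no read in any library. Cox7a2l, a relative of Cox7a2 known for its place in supercomplexes, rose by 0.83 ± 0.12 and 0.62 ± 0.12 and Cox7a2 by 0.64 ± 0.09 and 0.63 ± 0.09. Cox6b1 was called higher (0.35 ± 0.09 and 0.38 ± 0.09), but turned to -0.28 and -0.14 with length and GC content corrected. The 1 gene not called, Cox7b2, stayed under 1 CPM.

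In complex V, 11 of 17 tested genes were higher in each line, with 2 lower in the ERK3-depleted and 1 lower in the MK5-depleted line. Atp5e, the epsilon subunit of the central stalk (chr2:174461072-174464105, minus strand), had 109, 120 and 122 CPM in control DM2, 342, 380 and 188 CPM in ERK3-depleted DM2 and 231, 234 and 199 CPM in MK5-depleted DM2. All 6 depleted libraries were above control (1.38 ± 0.18 and 0.92 ± 0.18, edgeR adjusted p = 1.08e-05 and 0.00052). Atp5b (chr10:128083273-128090391, plus strand) had 1449, 1464 and 1447 CPM in control DM2, 1087, 895 and 1242 CPM in ERK3-depleted DM2 and 1222, 1168 and 1521 CPM in MK5-depleted DM2. It fell by 0.44 ± 0.11 in the ERK3-depleted line on read counts (edgeR adjusted p = 0.00257) but stood at 0.003 on TPM, and its MK5-depleted libraries overlapped control (-0.16 ± 0.11, edgeR adjusted p = 0.251).

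Atp5a1, the alpha subunit, fell by 0.39 ± 0.09 in the ERK3-depleted line (edgeR adjusted p = 0.00171) and was not called in the MK5-depleted line (-0.19 ± 0.09, edgeR adjusted p = 0.107). The gamma subunit gene Atp5c1 (0.33 ± 0.07 and 0.27 ± 0.07) and the delta subunit gene Atp5d (0.91 ± 0.12 and 0.67 ± 0.12), parts of the same soluble head and stalk, were higher in both lines. Of the c subunit genes, Atp5g1 rose by 1.10 ± 0.15 and 0.81 ± 0.15, Atp5g2 was not called (0.30 ± 0.30 and 0.16 ± 0.30), and Atp5g3 was not called in the ERK3-depleted line (0.14 ± 0.08). In the MK5-depleted line Atp5g3 was called higher (0.25 ± 0.08) but turned to -0.14 with length and GC content corrected and to -0.12 on TPM.

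**Figure D2:**
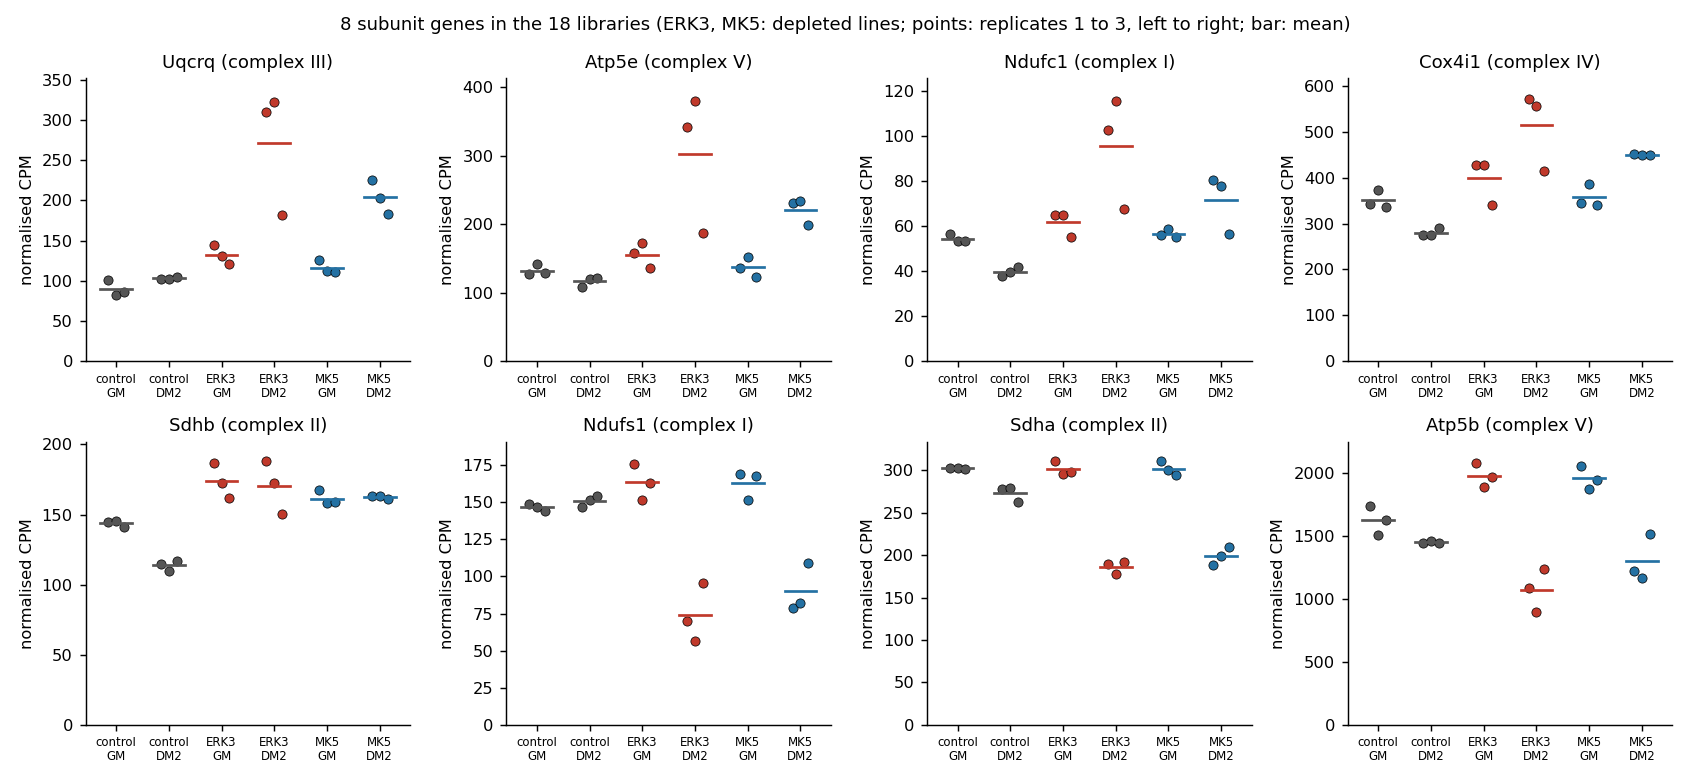
Normalised CPM of 8 subunit genes in the 18 libraries; points are the replicates of a group and bars their mean. Uqcrq, Atp5e, Ndufc1 and Cox4i1 are highest in the ERK3-depleted DM2 group, with replicate 3 the lowest of its 3 libraries, while Ndufs1 and Sdha are lowest in the 2 depleted DM2 groups.

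Reads that match more than 1 place, as those of genes with processed pseudogenes can, are not in the gene counts. Uniquely mapped reads came to 1.77% of the RSEM expected counts for Atp5l, 2.39% for Cox7c, 6.28% for Atp5g2, 16.6% for Atp5g1, 23.0% for Ndufs5 and 49.0% for Ndufb2, and to under 80% for 17 tested genes in all. The values of these genes are less certain. Atp5l rested on 24 to 130 reads a library. It had a log2 fold change of 1.36 ± 0.29 in the ERK3-depleted line at DM2 (edgeR adjusted p = 0.000777) and 0.68 ± 0.30 in the MK5-depleted line (edgeR adjusted p = 0.0717). On expected counts, which share out such reads, 66 and 65 genes were called at DM2.

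The genes that rose and those that fell at DM2 differed in the length of their transcripts. Over the 79 genes, whose expression-weighted transcript length ran from 353 to 2694 bases with a median of 646, Pearson's r between log2 length and log2 fold change was -0.65 in the ERK3-depleted and -0.67 in the MK5-depleted line. These values describe the points, which share their libraries and their depth. The same relation held over all 13918 tested genes with a length (r = -0.33 and -0.34), whose median length was 2361 bases. In GM the values over the 79 genes were -0.25 and 0.10.

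Of the 34 genes under 600 bases 32 were higher and 0 lower at DM2 in each depleted line, with medians of 0.81 and 0.58, against 0.86 and 0.65 for all 606 tested genes of that length. Of the 29 genes from 600 to 1200 bases 25 were higher and 0 lower in each line (medians 0.44 and 0.40, against 0.52 and 0.40 for all 1868 genes of that length). Of the 16 genes of 1200 bases and over 4 were higher and 5 lower in the ERK3-depleted line, and 4 higher and 3 lower in the MK5-depleted line (medians -0.06 and 0.06, against -0.08 and -0.07 for all 11444 genes of that length). The members' medians thus lay close to those of all genes of their length in each class. The long genes that rose in both lines were Sdhd, Ndufa13, Ndufs4 and Ndufa11. Those that fell were Ndufs1, Sdha, Uqcrc2, Atp5a1 and Atp5b in the ERK3-depleted line and Ndufs1, Sdha and Atp5s in the MK5-depleted line.

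In GM the length classes gave another picture in the ERK3-depleted line. The medians there were 0.27, 0.28 and 0.24 from short to long, where all genes of the same lengths had 0.19, 0.14 and -0.04. In the MK5-depleted line they were 0.07, 0.17 and 0.15, where all genes had -0.01, 0.01 and -0.01.

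**Figure D3:**
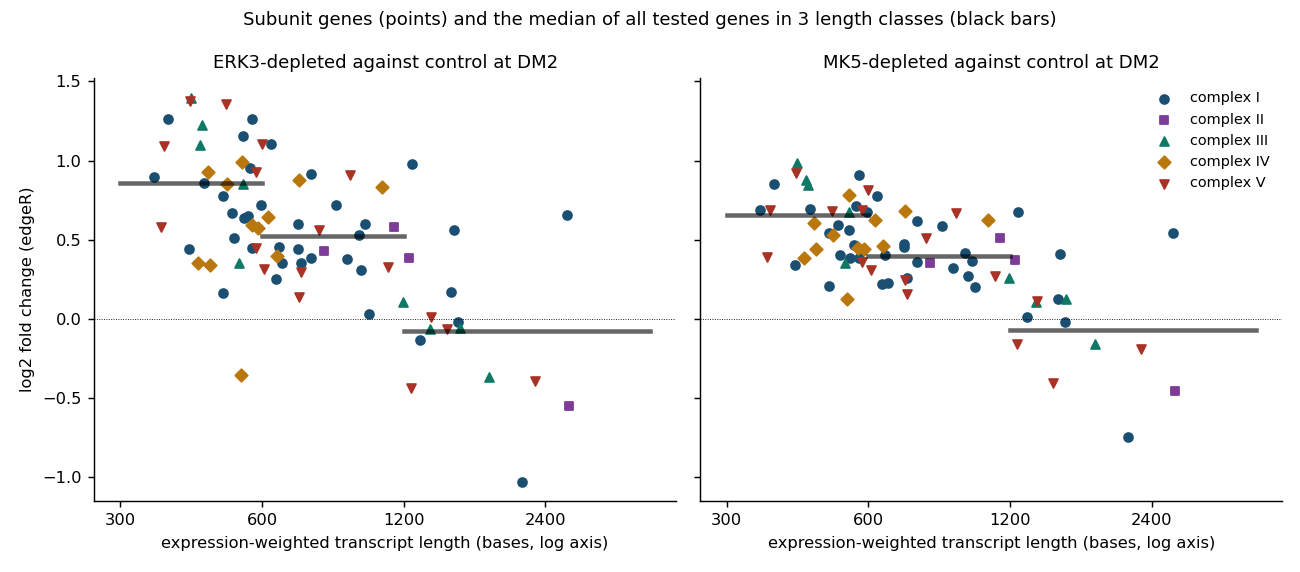
Log2 fold change at DM2 (edgeR) of the 79 tested subunit genes against their transcript length on a log axis, with 1 symbol per complex; black bars give the median of all tested genes under 600, from 600 to 1200, and of 1200 bases and over. In both depleted lines the short genes lie near the bar of all short genes (0.86 and 0.65) and the long genes lie lower, from -1.03 to 0.98 in the ERK3-depleted line, with 4 of them called higher.

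The length difference was also measured in each library. The median of the short subunit genes minus that of the long ones, each as log2 CPM relative to the mean of the 18 libraries, was 0.61, 0.96 and 0.20 in ERK3-depleted replicates 1 to 3 at DM2 and 0.38, 0.35 and 0.12 in the MK5-depleted replicates. In the control libraries at DM2 it was -0.30, -0.26 and -0.29, and in the 9 GM libraries it lay between -0.35 and -0.03. The 2 libraries with most reads outside genes also had the highest values. These were 10.3% of uniquely mapped reads and 0.96 in ERK3-depleted replicate 2, and 7.20% and 0.61 in replicate 1. MK5-depleted replicate 3 had the lowest share of the 6 depleted DM2 libraries, 3.47%, and the lowest value, 0.12. Over all tested genes the same difference was 0.57, 0.61 and 0.063 in ERK3-depleted DM2 replicates 1 to 3. It was 0.28, 0.28 and 0.10 in the MK5-depleted and -0.48, -0.50 and -0.40 in the control DM2 replicates. ERK3-depleted GM replicates 1 and 2, at 0.097 and 0.24, lay above ERK3-depleted DM2 replicate 3 on that measure. The part of RNA quality or library make-up in the difference was not tested. When the percent of such reads entered the fit as a covariate, 38 genes were higher and 2 lower in the ERK3-depleted line at DM2.

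**Figure D4:**
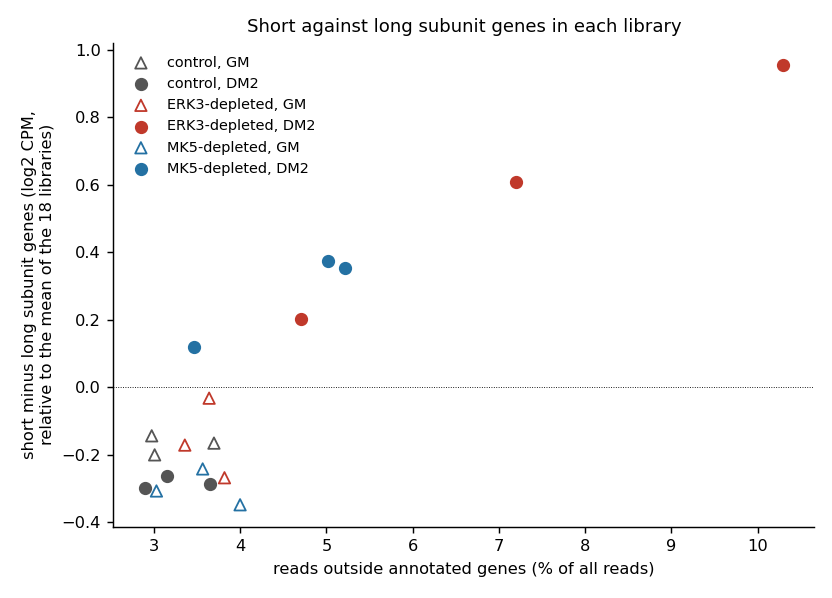
Short minus long subunit genes (median log2 CPM relative to the mean of the 18 libraries) against the percent of reads outside annotated genes, 1 point per library. The percent is of uniquely mapped reads, although the axis names all reads. The 6 depleted DM2 libraries lie above 0, between 0.12 and 0.96, and all 12 other libraries lie below 0. Over all tested genes, not drawn here, ERK3-depleted GM replicates 1 and 2 also lay above 0 (0.097 and 0.24).

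Levels were also summed per complex in TPM. The 83 genes summed to 24261 ± 867 TPM (SD, n = 3) in control GM, 27786 ± 1005 in ERK3-depleted GM and 26234 ± 309 in MK5-depleted GM, and both depleted groups lay wholly above control. At DM2 the sums were 23541 ± 86.0, 25551 ± 1567 and 26385 ± 1108, where again neither depleted group overlapped control. Complex II was the exception. Its sum was 760 ± 8.78 TPM in control DM2, 552 ± 79.1 in ERK3-depleted and 658 ± 66.0 in MK5-depleted DM2. No depleted library reached the control range. The median of all genes on TPM was itself lower in both depleted lines at DM2, as given above. A lower value on TPM is therefore not particular to complex II. Its gene Sdhc, called higher on read counts, stood at -0.68 and -0.30 on TPM in the ERK3- and MK5-depleted lines. Complex IV went from 5169 ± 34.5 TPM to 6186 ± 458 and 6415 ± 170, and complex III from 2737 ± 32.8 to 3287 ± 183 and 3311 ± 182. Complex I differed little (7139 ± 54.8, 7304 ± 445 and 7608 ± 437 TPM), with ERK3-depleted libraries on both sides of control, and complex V went from 7737 ± 48.1 to 8223 ± 483 and 8393 ± 288 TPM. No test was run on these sums.

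**Figure D5:**
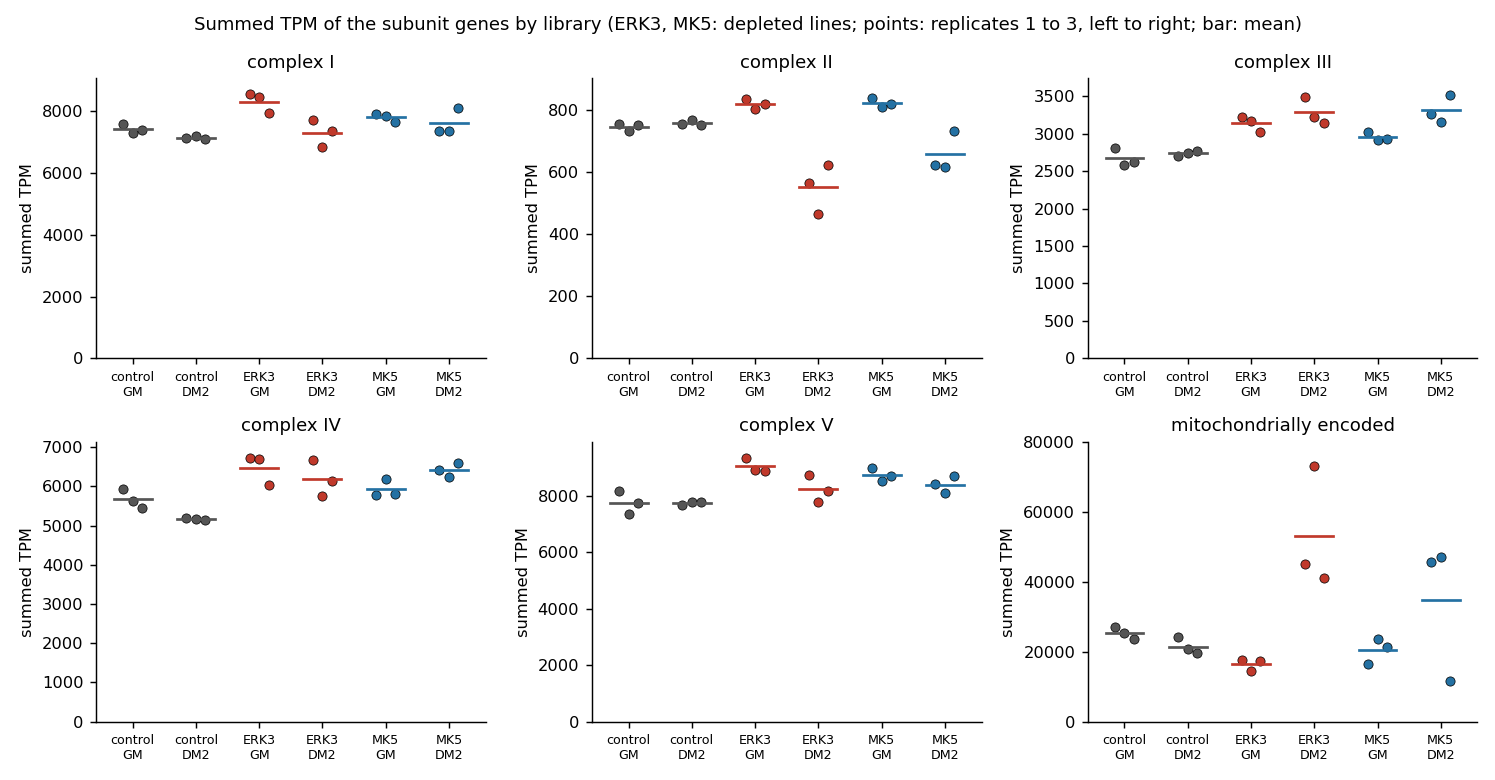
Summed TPM of the subunit genes of each complex and of the 13 mitochondrially encoded subunit genes in the 18 libraries; points are the replicates of a group and bars their mean. The complex II sum is lowest in the depleted DM2 groups (552 and 658 TPM), and the mitochondrially encoded sum is highest there, with MK5-depleted replicate 3 as the exception.

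The change from GM to DM2 differed between lines. In the ERK3-depleted line 30 genes were higher and 17 lower at DM2 than in GM, where 55.1% of all tested genes were called, and in the MK5-depleted line 25 were higher and 12 lower, where 49.3% were called. The interaction term tests the difference from the control line directly. It called 28 genes higher and 8 lower for the ERK3-depleted line, where 28.6% of all tested genes were called (14.6% higher and 14% lower), and 24 higher and 3 lower for the MK5-depleted line, where 18% were called (8.54% higher and 9.48% lower). The splits with length and GC content corrected were 5 higher and 20 lower, and 1 higher and 7 lower, and on TPM 9 and 25, and 9 and 5. For the change within each depleted line they became 21 higher and 29 lower, and 10 and 29, with the correction, and 12 and 37, and 18 and 19, on TPM. Without the 4 libraries named above the interaction calls were 1 higher and 4 lower for the ERK3-depleted line, and 24 and 2 for the MK5-depleted line, and the change within the ERK3-depleted line was called for 3 higher and 17 lower. With the percent of reads outside genes as covariate that last split was 3 higher and 10 lower. The shares of all tested genes called in these alternative fits are not given. Their counts are therefore not read as particular to the subunit genes. The total of 27 for the MK5-depleted interaction ran from 9, without MK5-depleted GM replicate 3, to 43, without ERK3-depleted DM2 replicate 3.

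Cox4i1 differed in sign between the lines. It fell by 0.33 ± 0.11 from GM to DM2 in control (edgeR adjusted p = 0.0199) and rose by 0.37 ± 0.11 in the ERK3-depleted and 0.33 ± 0.11 in the MK5-depleted line, the latter turning to -0.03 with length and GC content corrected. The interaction was 0.69 ± 0.15 and 0.66 ± 0.15 (edgeR adjusted p = 0.00523 and 0.0118). Without the 4 libraries its rise in the ERK3-depleted line was 0.05 (edgeR adjusted p = 0.779) and the interaction 0.36 (edgeR adjusted p = 0.167), neither called, while those of the MK5-depleted line stayed called at 0.35 and 0.66. Ndufs1 was not called in control (0.04 ± 0.14) and fell by 1.14 ± 0.14 and 0.85 ± 0.14 in the depleted lines. Its interaction was -1.18 ± 0.20 and -0.89 ± 0.20 (edgeR adjusted p = 0.00207 and 0.0102). Ndufa4 was lower at DM2 in all 3 lines (-0.57, -0.60 and -0.37), and its interaction was not called.

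Set directly against each other, the 2 depleted lines had 0 called subunit genes in GM and 0 at DM2 by the edgeR test, where 0% of all tested genes were called in either medium. At an unadjusted p under 0.05 there were 10 genes in GM, all lower in the MK5-depleted line, and 19 at DM2, of which 15 were lower and 4 higher. DESeq2 also called 0 of these genes in either medium, where it called 10 of all genes in GM and 191 at DM2. The median difference, MK5-depleted minus ERK3-depleted, was -0.14 in GM and -0.11 at DM2, with single genes between -0.68 and 0.48 at DM2 and a median standard error of 0.10. Uqcrq differed by -0.41 ± 0.15 (edgeR adjusted p = 0.173), so that a difference of this size could not be told from 0 here. Without ERK3-depleted replicate 3 at DM2, 5 genes were called higher and 29 lower in the MK5-depleted line. The share of all tested genes called in that fit is not given, so these counts are not read as particular to the subunit genes.

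Genes that work with the subunits were followed as lists. Of 46 assembly factors, which insert cofactors or join modules, 45 were tested. At DM2 24 were higher and 6 lower in the ERK3-depleted and 20 higher and 5 lower in the MK5-depleted line, with medians of 0.32 and 0.22. These are 66.7% and 55.6% of those tested, against 55.8% and 45.1% of all tested genes, and without the 4 libraries the counts were 12 and 5, and 13 and 3. The copper chaperone gene Cox17 had 1.47 ± 0.20 and 1.14 ± 0.20, and Taco1, the translational activator of mitochondrial Co1, had -1.004 ± 0.17 and -0.66 ± 0.16 (edgeR adjusted p for Taco1 = 8.8e-05 and 0.0035, the latter not called without the 4 libraries, at -0.37). In GM 2 were higher and 0 lower in the ERK3-depleted line and 0 and 0 in the MK5-depleted line. In control 4 rose and 8 fell from GM to DM2, 26.7% of those tested against 45.6% of all.

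The 13 subunits encoded in mitochondrial DNA were all listed in the files, but 6 stayed under 0.1 CPM by uniquely mapped reads and 7 were tested. All 7 were higher in the ERK3-depleted line at DM2 (median 1.69), 100% against 55.8% of all tested genes called. In the MK5-depleted line 3 were higher at DM2 (median 0.93), 42.9% against 45.1% of all and so close to that share. In GM 0 were called in either line, against 6.79% and 8.45% of all. mt-Nd1, a membrane subunit of complex I, had 2105, 1743 and 1679 CPM in control DM2, 6683, 10646 and 4164 CPM in ERK3-depleted DM2, and 5501, 5188 and 1193 CPM in MK5-depleted DM2. MK5-depleted replicate 3 therefore lay below control while replicates 1 and 2 lay above it. Without the 4 libraries mt-Nd1 turned from 1.10 to -0.61 in the MK5-depleted line (edgeR adjusted p = 0.024), and the list had 4 higher and 0 lower in the ERK3-depleted and 0 higher and 2 lower in the MK5-depleted line. Reads outside genes were also lowest in that replicate among the depleted DM2 libraries (3.47%), and their part in these levels was not tested. Cycs, cytochrome c, had 28.3, 27.7 and 15.1 CPM in ERK3-depleted DM2 against 6.475, 6.773 and 7.175 CPM in control DM2 (1.80 ± 0.35, edgeR adjusted p = 0.000373), and 20.2, 17.1 and 5.16 CPM in the MK5-depleted line, where replicate 3 was again below control. Its MK5-depleted value turned from 1.05 to -0.39, not called, without the 4 libraries.

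Of 14 regulators of mitochondrial biogenesis 12 were tested. In control 4 rose at DM2 and 0 fell (33.3% called, against 45.6% of all tested genes), led by the coactivator genes Ppargc1a (2.57 ± 0.35, edgeR adjusted p = 9.66e-06) and Ppargc1b (0.96 ± 0.24, edgeR adjusted p = 0.00323). At DM2 1 was higher and 3 were lower in each depleted line, again 33.3%, below the 55.8% and 45.1% of all tested genes. Gabpa, the DNA-binding subunit of GABP, had 103.3, 115.6 and 116.6 CPM in control DM2, 50.2, 41.8 and 71.1 CPM in ERK3-depleted and 53.6, 65.5 and 65.8 CPM in MK5-depleted DM2. No depleted library reached the control range (-1.04 ± 0.17 and -0.86 ± 0.17, edgeR adjusted p = 8.57e-05 and 0.000717). Yy1 was lower as well (-0.61 ± 0.15 and -0.58 ± 0.15), and Ppargc1b was higher (1.13 ± 0.22 and 0.56 ± 0.22), but without the 4 libraries neither was called in either line. Of the 3 muscle isoforms left out of the set, Cox8b rose (5.41 ± 0.55) and Cox7a1 fell by 1.70 ± 0.43 from GM to DM2 in control. Cox8b stayed under 0.1 CPM in control GM, so the size of its rise is uncertain. The 3 isoforms together summed to 0.801 to 1.27 CPM in control GM. Cox6a2 rose from 0.267, 0.176 and 0.0501 CPM to 4.64, 4.41 and 5.74 CPM there and reached 8.23, 7.38 and 8.51 CPM in ERK3-depleted DM2 (0.71 ± 0.21 against control, edgeR adjusted p = 0.00738).

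Over the 18 libraries the genes whose log2 CPM followed the mean of the tested complex I genes most closely were Mrpl58 and Smdt1 (r = 0.978 each), Rpl36al and Rpl19 (r = 0.975 each) and Minos1 (r = 0.974). Mrpl58 belongs to the mitochondrial ribosome, Smdt1 to the mitochondrial calcium uniporter, Rpl36al and Rpl19 to the cytosolic ribosome and Minos1 to the cristae organising complex. Their transcripts were 526 to 740 bases long, and the points share their libraries and depth.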

How the data were processed

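RNA-seq was analysed for 18 libraries in 6 groups of 3. The authors used bcl2fastq 2.17, STAR 2.5.1b, RSEM 1.2.28 and build GRCm38, per the submitters' processing notes. The deposited STAR files hold read counts per gene, and the reverse-strand column was used. The deposited RSEM files hold expected counts and TPM. Summary lines that name no gene held 21.7% to 35.8% of reads and were left out of library sizes.

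Counts were normalised by TMM and tested with edgeR 4.0.16 (R 4.3.3), by a robust quasi-likelihood fit on the 6 group means after filterByExpr, which left 13939 genes. There were 11 comparisons, each with Benjamini-Hochberg adjustment over all genes, and a gene was called at adjusted p under 0.05. Fold changes are log2 ± an approximate standard error, the absolute log2 fold change divided by the square root of the F statistic. The fit had 12 residual degrees of freedom. Alternatives used DESeq2 1.42.0, limma 3.58.1 on log2(TPM + 1), rounded expected counts, other filters and scalings, unstranded counts, offsets for transcript length (RSEM's expression-weighted length, a choice made after first output was seen) and GC content, the percent of reads outside genes as covariate, and libraries left out. The code was tested on simulated data.

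Members and gene lists were chosen with earlier results of these data known. Named genes were, per comparison and complex, up to 2 called genes with the largest change in each direction (or the gene nearest to a call), and the paralog sets of Cox4i, Ndufa4, Cox6b, Cox7a2, Cox7b, Cox8 and Atp5g with the Sdh genes. Ndufa11, Ndufa13, Ndufs3, Ndufs4, Ndufs7, Ndufs8, Ndufv1, Atp5d and, in comparisons outside that rule, other genes were named after their values were seen. Replicate numbers come from the labels' titles. Same-numbered libraries deviated together, with every correlation over 0.1, in 5 of 9 comparisons (range -0.0917 to 0.498), among them both depleted lines against control in GM. Replicates differed by more than sampling noise. Promoter sequences are from RefSeq. The values of 1 subunit gene are not reported here, although it is in the counts and medians.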

Additional observations from a re-analysis of the deposited data

Results flagged for a closer look

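The change from GM to DM2 in a depleted line differed from that in control by the interaction term of the edgeR test for 36 subunit genes in the ERK3-depleted and 27 in the MK5-depleted line. Among the genes singled out in each complex, the log2 differences of the ERK3-depleted line were 1.08 for Ndufc1, 0.98 for Ndufa2, -1.18 for Ndufs1, -0.39 for Ndufa9, 0.31 for Sdhb, -0.55 for Sdha, 0.88 for Uqcr11, 0.85 for Uqcrq, -0.49 for Uqcrc2, -0.40 for Uqcrfs1, 0.87 for Cox7a2l, 0.69 for Cox4i1, 1.14 for Atp5e, 0.79 for Atp5k, -0.72 for Atp5b and -0.63 for Atp5a1. Those of the MK5-depleted line were 0.80 for Ndufa2, 0.79 for Ndufc1, -0.89 for Ndufs1, 0.34 for Sdhb, -0.45 for Sdha, 0.72 for Uqcr11, 0.66 for Uqcrh, 0.77 for Cox7a2l, 0.66 for Cox4i1, 0.87 for Atp5e, 0.66 for Atp5h and -0.39 for Atp5a1. The 2 comparisons share the control libraries. Without the 4 DM2 libraries with most reads outside genes, 5 of the 16 ERK3-depleted values stayed called (Ndufc1, Ndufs1, Sdha, Atp5b and Atp5a1) and 11 did not, among them Uqcr11 (0.31), Uqcrq (0.25), Sdhb (0.11) and Atp5e (0.44). Of the 12 MK5-depleted values 10 stayed called, and Sdhb and Atp5a1 did not. On TPM the Sdhb value turned to -0.19 in the ERK3-depleted and -0.00680 in the MK5-depleted line.

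Reads outside annotated genes, which no comparison of expression uses, exceeded the highest control share of 3.70% most in 5 depleted DM2 libraries. They made up 7.20%, 10.3% and 4.71% of uniquely mapped reads in ERK3-depleted replicates 1 to 3 and 5.02% and 5.21% in MK5-depleted replicates 1 and 2.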

How the results depend on the processing

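Counts are of the 79 tested subunit genes called in either direction. The share of all tested genes called is not given here for the settings below. The counts are therefore not read as particular to the subunit genes. With length and GC content corrected, 12 were called for DM2 against GM in control (14 with the mean annotated length, chosen after seeing the data), 2 for ERK3-depleted against control in GM (10 with the annotated length), 13 (12) for MK5-depleted in GM, 24 (38) for MK5-depleted at DM2 and 8 (10) for the response of the MK5-depleted line. With this correction and the replicate block together the counts were 13 for ERK3-depleted in GM, 20 for MK5-depleted in GM, 27 for MK5-depleted at DM2, 1 for MK5-depleted against ERK3-depleted at DM2 and 15 for the MK5 response. On TPM they were 9 in control, 0 in GM for each depleted line, 36 for MK5-depleted at DM2 and 14 for the MK5 response. The replicate block gave 38 for ERK3-depleted and 8 for MK5-depleted in GM and changed no other call among the 137 calls of named genes, and a block within each line gave 35 in control and 41 for the MK5 response. With reads outside genes as a covariate the counts were 13 for DM2 against GM in the ERK3-depleted line, 34 for ERK3-depleted and 9 for MK5-depleted in GM, 40 for ERK3-depleted at DM2 and 2 for the ERK3 response. Without the 4 DM2 libraries they were 20, 47 and 15 for the first 3 of these and 5 for the ERK3 response. DESeq2 gave 35 for ERK3-depleted in GM, and no filter gave 8 for MK5-depleted against ERK3-depleted at DM2. The cause of these shifts was not tested. Of the 137 calls of named genes, 99 passed the test and 38 kept their direction without passing it when the 4 libraries were left out, values that were added after seeing the data.

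Leaving out 1 library at a time gave 14 to 34 in control, 37 to 51 and 26 to 42 for DM2 against GM in the ERK3- and MK5-depleted lines, 0 to 42 and 0 to 10 for these lines in GM, 65 to 67 and 58 to 66 at DM2, 0 to 0 and 0 to 34 between them in GM and at DM2, and 25 to 52 and 9 to 43 for the responses. The control count was 15 without control GM replicate 1 or 2 and 14 without control DM2 replicate 1 or 2. The ERK3-depleted count in GM was 13, 11 and 11 without control DM2 replicates 1 to 3, 10 without ERK3-depleted GM replicate 2, 12 and 13 without MK5-depleted GM replicates 1 and 3, and 42 without ERK3-depleted DM2 replicate 3. Without that last library the MK5-depleted count in GM was 10 and the MK5 response 43, and without control GM replicate 1 the former was 7. The MK5 response was 13 without control GM replicate 2, 15 without control DM2, MK5-depleted GM or MK5-depleted DM2 replicate 1, and 9 without MK5-depleted GM replicate 3.

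Of the 137 calls of named genes 14 changed sign under at least 1 setting, as log2 fold changes. With length and GC content corrected the values were 0.078 for Uqcrb (DM2 against GM in control), -0.027 for Cox4i1 (DM2 against GM in MK5-depleted), -0.014 for Sdhc (ERK3-depleted at DM2), -0.28 for Cox6b1 (ERK3-depleted at DM2), -0.18 for Ndufa4 (MK5-depleted at DM2), -0.14 for Cox6b1 (MK5-depleted at DM2), -0.14 for Atp5g3 (MK5-depleted at DM2), -0.033 for Sdhc (MK5-depleted at DM2), -0.00324 for Sdhb (MK5 response) and -0.027 for Cox8a (MK5 response). The annotated length gave 0.086 for Uqcrb (DM2 against GM in control), -0.013 for Cox4i1 (DM2 against GM in MK5-depleted), -0.27 for Cox6b1 (ERK3-depleted at DM2), -0.062 for Ndufa4 (MK5-depleted at DM2), -0.12 for Cox6b1 (MK5-depleted at DM2) and -0.042 for Atp5g3 (MK5-depleted at DM2). The correction together with the block gave 0.0802 for Uqcrb (DM2 against GM in control), -0.027 for Cox4i1 (DM2 against GM in MK5-depleted), -0.014 for Sdhc (ERK3-depleted at DM2), -0.28 for Cox6b1 (ERK3-depleted at DM2), -0.18 for Ndufa4 (MK5-depleted at DM2), -0.14 for Cox6b1 (MK5-depleted at DM2), -0.14 for Atp5g3 (MK5-depleted at DM2), -0.032 for Sdhc (MK5-depleted at DM2), -0.000995 for Sdhb (MK5 response) and -0.028 for Cox8a (MK5 response). The covariate gave -0.073 for Ndufb4 (DM2 against GM in ERK3-depleted). On TPM the values were -0.68 for Sdhc (ERK3-depleted at DM2), 0.00302 for Atp5b (ERK3-depleted at DM2), -0.19 for Sdhd (ERK3-depleted at DM2), -0.069 for Ndufa4 (MK5-depleted at DM2), -0.12 for Atp5g3 (MK5-depleted at DM2), -0.30 for Sdhc (MK5-depleted at DM2), -0.19 for Sdhb (ERK3 response) and -0.0068 for Sdhb (MK5 response).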
